A study of Mus musculus with 12 samples.

Results

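Wild-type left ventricle after myocardial infarction (MI, the death of heart muscle when a coronary artery is blocked) was compared with wild-type left ventricle after sham surgery. The samples were chosen by genotype and surgery in the labels, which gave 6 of the 12 arrays of the series, 3 per group. All came from male C57BL/6J mice whose ventricles were taken 4 weeks after surgery. The mice of the MI group were 14, 13 and 13 weeks old (replicates 1, 2 and 3), and those of the sham group 14, 14 and 13 weeks. The other 6 arrays hold ventricles of mice that lack the long noncoding RNA Miat throughout the body, and entered the fit only to share its estimate of the spread and to compare slides. These knockout mice were older, at 16 weeks for every mouse with MI and 16, 15 and 15 weeks for sham replicates 1, 2 and 3. The labels call the ventricles independent biological replicates, so each p-value measures the spread between ventricles, on 1 array each.

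In the weeks after an infarction, dead muscle is cleared by inflammatory cells and replaced by a collagen scar made by activated fibroblasts, while the surviving cardiomyocytes enlarge and change their metabolism. Long noncoding RNAs are transcripts without a protein product, some of which act on chromatin or on other RNAs, and lincRNAs are those that lie between protein-coding genes. In whole tissue, fewer cells of a type and less RNA per cell cannot be told apart. The array carries 60930 probes for messenger and long noncoding RNAs, and only 15 of them are paired with transcripts by the deposited files. Markers of cardiomyocytes, fibroblasts, macrophages and endothelium, and so the identity of the tissue, were not analysed here.

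Both groups lay on different slides. All MI arrays lay on slide 1 and all sham arrays on slide 2, so surgery and slide cannot be told apart in wild type and no value within a slide exists. Knockout sham mice were the only group on both slides (replicates 2 and 3 on slide 1, replicate 1 on slide 2). Every value given below with slide as a fixed term thus rests on that 1 mouse of slide 2, which cannot be told apart from the slide. The share of an array's non-control spots well above background was 82.6% to 88.1% in wild type, and the number of arrays limits the precision. MI replicate 2 stood apart from the other arrays, and counts without it are given beside the results that rest on it.

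Of the 15 named genes, 6 were higher after MI and 1 was lower, and 8 did not pass the test. The rise took in Actb and Tuba1b, which encode cytoplasmic actin and a tubulin of the cytoskeleton, Ppia, a protein-folding isomerase, B2m, the light chain of class I antigen-presenting molecules, Gusb, a lysosomal enzyme, and Rpl13a, a ribosomal protein. The gene that fell was Gapdh, an enzyme of glycolysis. All values are log2 of the scanner's processed signal minus the 75th percentile of the array, and a probe was called where the adjusted p of the limma fit was under 0.05. The share called was 46.7% of these genes against 27.8% of all probes tested. Arrays of both groups did not overlap for 10 of the 15 genes, against 52.3% of all probes.

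For the cytoskeleton, Actb stood at 5.12, 5.82 and 5.17 in MI replicates 1, 2 and 3 and at 4.13, 3.97 and 4.32 in the sham replicates. The mean was 5.37 ± 0.39 (SD, n = 3) after MI and 4.14 ± 0.18 (SD, n = 3) after sham, a log2 difference of 1.23 (SE 0.21, adjusted p = 0.00659) or 2.35-fold. Every MI array was above every sham array, and MI replicate 2 was the highest. Tuba1b stood at 6.96, 7.30 and 6.94 after MI and at 6.14, 6.02 and 6.46 after sham, a difference of 0.86 (SE 0.15, adjusted p = 0.00689). Its groups did not overlap either. With slide as a fixed term, for which knockout sham supplies the slide effect, the difference of Tuba1b was 0.48 (adjusted p = 0.209) and that of Actb 1.76 (adjusted p = 0.0172).

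Of the protein-folding genes, Ppia (cyclophilin A) stood at 6.99, 7.48 and 7.04 after MI and at 5.89, 5.84 and 6.19 after sham. Its difference was 1.20 (SE 0.21, adjusted p = 0.00672), or 2.29-fold, with no overlap. Hsp90ab1, a heat shock chaperone made in most cells, stood at 5.49, 5.55 and 5.85 after MI and 5.84, 5.86 and 5.72 after sham. These ranges overlapped, and the difference of -0.17 did not pass (adjusted p = 0.236). It was -0.46 under quantile normalization (adjusted p = 0.0319) and -0.28 without MI replicate 3 (adjusted p = 0.05, just under the threshold). Of the protein-folding genes, 1 thus rose and the other did not pass.

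Among the immune and lysosomal genes, B2m stood at 6.63, 7.35 and 6.97 after MI and at 5.72, 6.05 and 6.22 after sham. The difference was 0.98 (SE 0.27, adjusted p = 0.0244) and the groups did not overlap. B2m did not pass without MI replicate 2 (0.80, adjusted p = 0.0883), sham replicate 1 (0.85, adjusted p = 0.085) or sham replicate 2 (1.01, adjusted p = 0.0691), nor under quantile normalization (0.65, adjusted p = 0.0777) or with slide as a fixed term (0.97, adjusted p = 0.219). Gusb stood at 1.80, 2.48 and 1.80 after MI and at 1.1, 1.15 and 1.24 after sham, a difference of 0.86 (SE 0.21, adjusted p = 0.0155). The sham arrays of Gusb lay close together and the MI arrays lay above all of them. Gusb did not pass without sham replicate 1 (0.83, adjusted p = 0.0553) or sham replicate 2 (0.86, adjusted p = 0.0548), and its difference was 1.35 with slide as a fixed term (adjusted p = 0.036).

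Rpl13a, a protein of the large ribosomal subunit, stood at 2.63, 3.05 and 2.94 after MI and at 2.23, 2.22 and 2.27 after sham. Its difference was 0.63 (SE 0.19, adjusted p = 0.0358) without overlap. The call was lost without any 1 of the arrays other than MI replicate 1: the difference was then 0.55 (MI replicate 2), 0.60 (MI replicate 3), 0.63 (sham replicate 1), 0.62 (sham replicate 2) and 0.65 (sham replicate 3). It was 0.41 under quantile normalization (adjusted p = 0.14) and 1.26 with slide as a fixed term (adjusted p = 0.0232). Hprt, an enzyme of purine salvage, differed by 0.31 (adjusted p = 0.183), and Nono, a nuclear RNA-binding protein, by 0.12 (adjusted p = 0.368). Tbp, the TATA-binding protein, differed by -0.18 (adjusted p = 0.157), and its MI arrays all lay below its sham arrays.

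In energy metabolism, Gapdh stood at 8.14, 7.89 and 8.0 after MI and at 8.47, 8.47 and 8.49 after sham. The difference was -0.47 (SE 0.12, adjusted p = 0.0205), with every MI array below every sham array and MI replicate 2 the lowest. Separate control spots of mouse Gapdh, which the fit did not use, were also lower after MI on every array, by -0.60 for the 3′ spots and -0.64 for the 5′ spots (exact two-sided permutation test, p = 0.1 each, the smallest that 3 arrays against 3 allow). The Gapdh call was lost without MI replicate 2 (-0.41, adjusted p = 0.0608) and without sham replicates 1, 2 and 3 (-0.47, -0.47 and -0.46). It held at -0.77 both under quantile normalization (adjusted p = 0.0049) and with slide as a fixed term (adjusted p = 0.0335). Control spots of Pgk1, another glycolytic enzyme, differed by -0.17 (3′) and -0.38 (5′) with overlapping arrays (exact permutation test, p = 0.3 each). The 3′ minus 5′ difference was 2.18 to 2.33 after MI and 2.01 to 2.31 after sham for the Gapdh control spots (exact permutation test, p = 0.8). For Pgk1 it was 8.01 to 8.58 after MI and 7.97 to 8.16 after sham (exact permutation test, p = 0.3).

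Gk, glycerol kinase, averaged 2.46 ± 0.27 (SD, n = 3) after MI and 2.44 ± 0.02 (SD, n = 3) after sham, a difference of 0.02. The means lay close together while the MI arrays, at 2.67, 2.16 and 2.54, were far more spread than the sham arrays. With slide as a fixed term the difference of Gk turned to -1.03 (adjusted p = 0.0463). Tfrc, the transferrin receptor that takes up iron, had the widest spread of the named genes: 2.25, 3.60 and 1.60 after MI against 2.27, 2.48 and 2.73 after sham. Its MI arrays lay on both sides of the sham arrays, and the difference was -0.01. G6pd2 and Ldhal6b, relatives of glucose-6-phosphate and lactate dehydrogenase, each differed by -0.15 without passing.

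**Figure D1:**
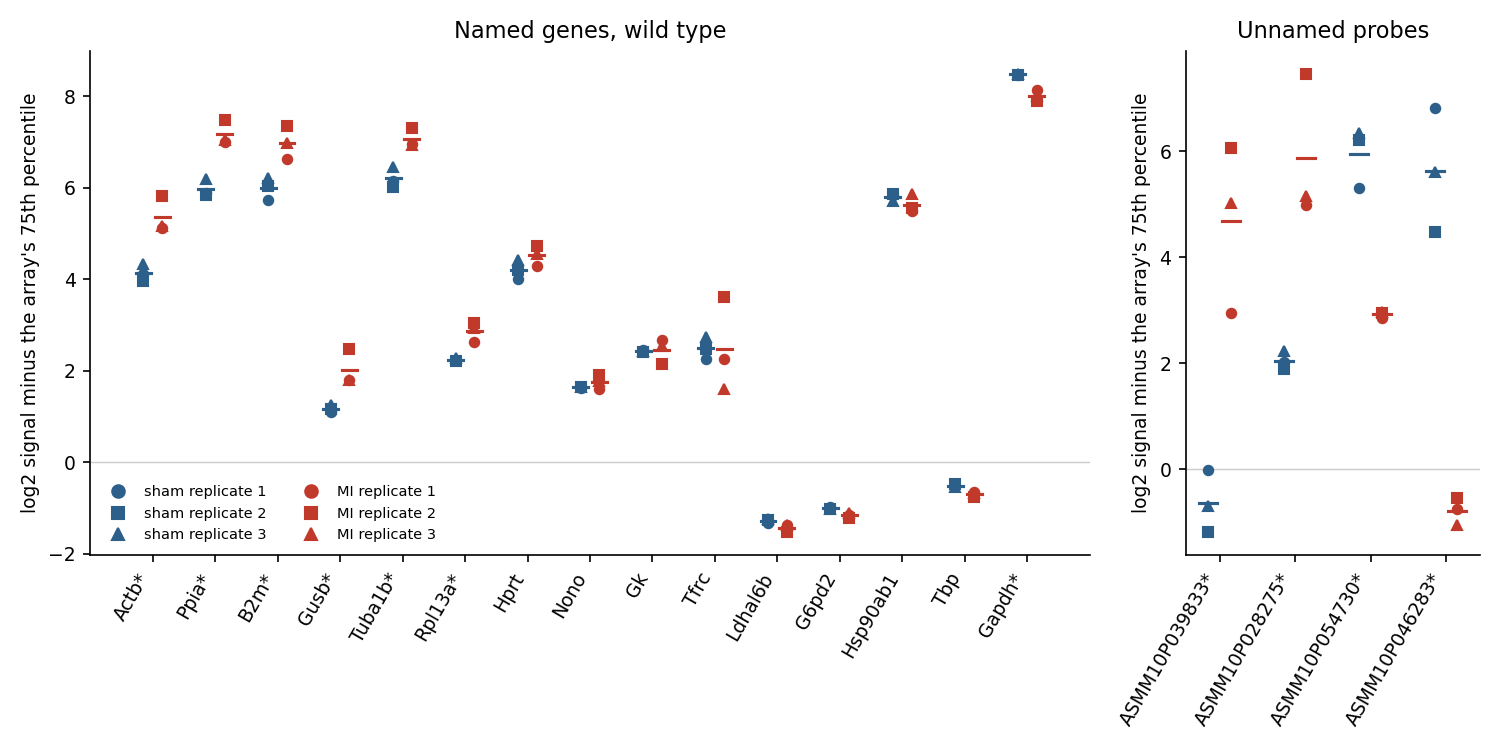
Log2 signal minus the array's 75th percentile (y axis) for the 15 named genes and 4 unnamed probes; each symbol is 1 wild-type array, bars are group means, and a star marks a called probe. Actb, Ppia, B2m, Gusb, Tuba1b and Rpl13a sit higher on all 3 MI arrays, Gapdh sits lower, and MI replicate 2 (square) is the highest array for all 6 genes that rose.

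Each named gene is printed as 20 spots on an array, and the median SD of spots within an array was 0.028 to 0.067 over these genes, below the differences of the called genes. The SD between ventricles was larger after MI than after sham for 14 of the 15. The exception was Tuba1b, with 0.20 after MI and 0.23 after sham. Leaving out MI replicate 2 kept 4 of the 7 calls (Actb, Ppia, Tuba1b and Gusb). The fit of the 6 wild-type arrays alone called all 7, and with age added as a covariate 1 passed (Ppia, 1.1, adjusted p = 0.0492). The differences of the others changed little with age, at 1.12 for Actb, 0.77 for Tuba1b, 0.84 for B2m, 0.79 for Gusb, 0.56 for Rpl13a and -0.44 for Gapdh, with adjusted p from 0.0577 to 0.0969.

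Promoters of a pair of genes that rose are shown as examples of the sequences searched for a common motif. RefSeq sequences were matched for 13 of the 15 genes, Actb and Hsp90ab1 having no entry in the table used. The 250 bases before the start of transcription are given on the strand of the gene, 5′ to 3′, for Ppia (GRCm38.p6, chr11:6415617-6415866, + strand) and Tuba1b (GRCm38.p6, chr15:98934391-98934640, - strand). Capitals mark the GC box GGGCGG, on either strand.
Ppia: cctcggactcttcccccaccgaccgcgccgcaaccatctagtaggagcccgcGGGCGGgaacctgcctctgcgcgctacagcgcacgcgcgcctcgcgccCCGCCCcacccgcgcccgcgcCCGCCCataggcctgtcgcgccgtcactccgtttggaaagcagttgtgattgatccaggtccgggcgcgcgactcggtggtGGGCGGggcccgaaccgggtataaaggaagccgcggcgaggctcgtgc
Tuba1b: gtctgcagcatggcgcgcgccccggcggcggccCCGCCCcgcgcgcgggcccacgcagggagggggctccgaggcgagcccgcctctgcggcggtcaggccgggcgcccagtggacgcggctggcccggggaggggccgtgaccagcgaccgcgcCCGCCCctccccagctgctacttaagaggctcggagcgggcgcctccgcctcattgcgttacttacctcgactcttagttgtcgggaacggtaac
The Ppia stretch holds 4 GC boxes and the Tuba1b stretch 2. The motif was present in 3 of the 5 matched genes that rose, in 0 of the 1 that fell and in 4 of the 7 that were not called, against 32.7% of 32851 RefSeq promoters. The motif was thus present in called and uncalled genes alike, and a match is a description of letters, not a site of binding.

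Across the array, 50992 probes were well above background on every array of at least 1 group and were tested. Of these, 14182 were called: 6819 higher after MI (13.4%) and 7363 lower (14.4%). An unadjusted p under 0.05 was reached by 22374. The groups did not overlap for 11858 probes that were higher (23.3%) and 14817 that were lower (29.1%), and 98.3% of the called probes were among them. The balance of directions was not stable: 48.1% of calls were higher as reported, 38.6% under quantile normalization and 56.2% under normexp background correction. No probe called in one direction was called in the opposite direction under any of the 22 alternatives. For several of them this was fixed in advance, since they changed the filter or the spread but not the difference. The difference of Ppia was 1.20 as reported, in wild-type arrays alone, with trend and robust set, and with no filter. Fits without 1 array shared all others with the reported fit. The count is thus informative mainly for alternatives that changed the scaling or added slide or age. The number of calls was 6937 without MI replicate 2, 5000 without sham replicate 1, 4276 without sham replicate 2 and 8772 without sham replicate 3.

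The size of the change differed by direction. The median difference was 0.83 for probes called higher and -0.53 for probes called lower, against -0.04 for all probes. Among calls of up to 0.5 on the log2 scale, 973 were higher and 3314 lower, and between 0.5 and 1 the counts were 3468 and 3520. Over 2-fold (a log2 difference over 1) the calls were 2907 (5.7% of probes), of which 2378 were higher (4.66%) and 529 lower (1.04%). Over 4-fold 273 were higher and 16 lower, and over 8-fold 55 and 3. As reported, small changes were thus mostly lower and large changes mostly higher. Calls of up to 2-fold were 4441 higher and 6834 lower, and were mostly lower in 19 of the 22 alternatives. The order turned under normexp (6507 higher, 5779 lower), with age as a covariate (239 and 73) and with the replicate number as a term in the 6 wild-type arrays (54 and 20).

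**Figure D2:**
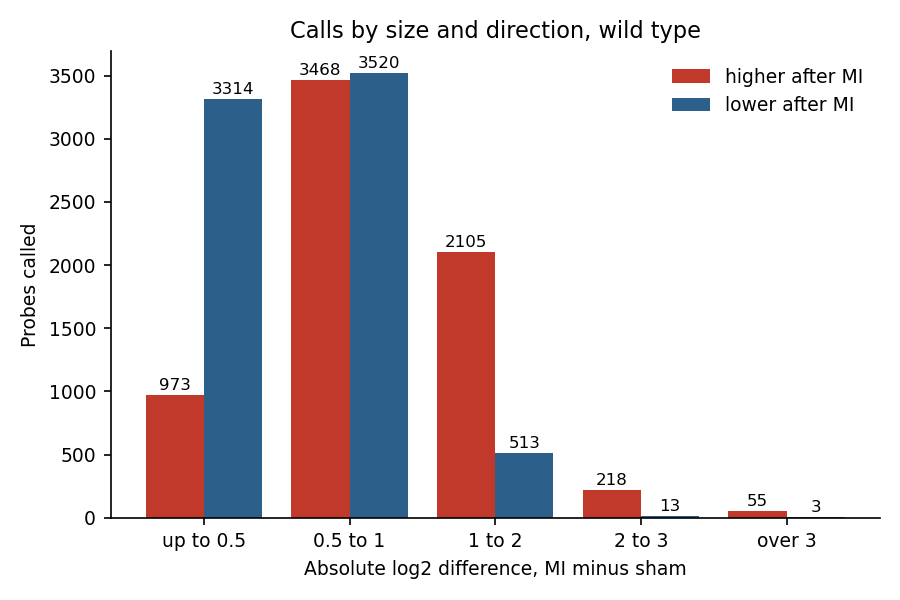
Number of called probes (y axis) by absolute log2 difference between MI and sham (x axis), red for higher and blue for lower after MI. Lower calls prevail up to 0.5 (3314 against 973) and higher calls prevail above 1, with 55 against 3 beyond 3.

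The counts were repeated over probes well above background on each of the 6 arrays, since the filter also keeps probes that are dim in 1 group. There 1979 were higher and 467 lower over 2-fold, 164 and 11 over 4-fold, and 28 and 3 over 8-fold. Calls over 2-fold were mostly higher in 21 of the 22 alternatives, with 1892 higher and 772 lower under quantile normalization and 1239 and 255 under normexp. With slide as a fixed term they were not, at 1822 higher and 1935 lower (48.5% higher). Without MI replicate 2 there were 1092 higher and 171 lower, and without MI replicate 3 there were 3477 and 1109. Without sham replicate 1 the counts were 1341 and 317, and without sham replicate 2 they were 1300 and 286.

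**Figure D3:**
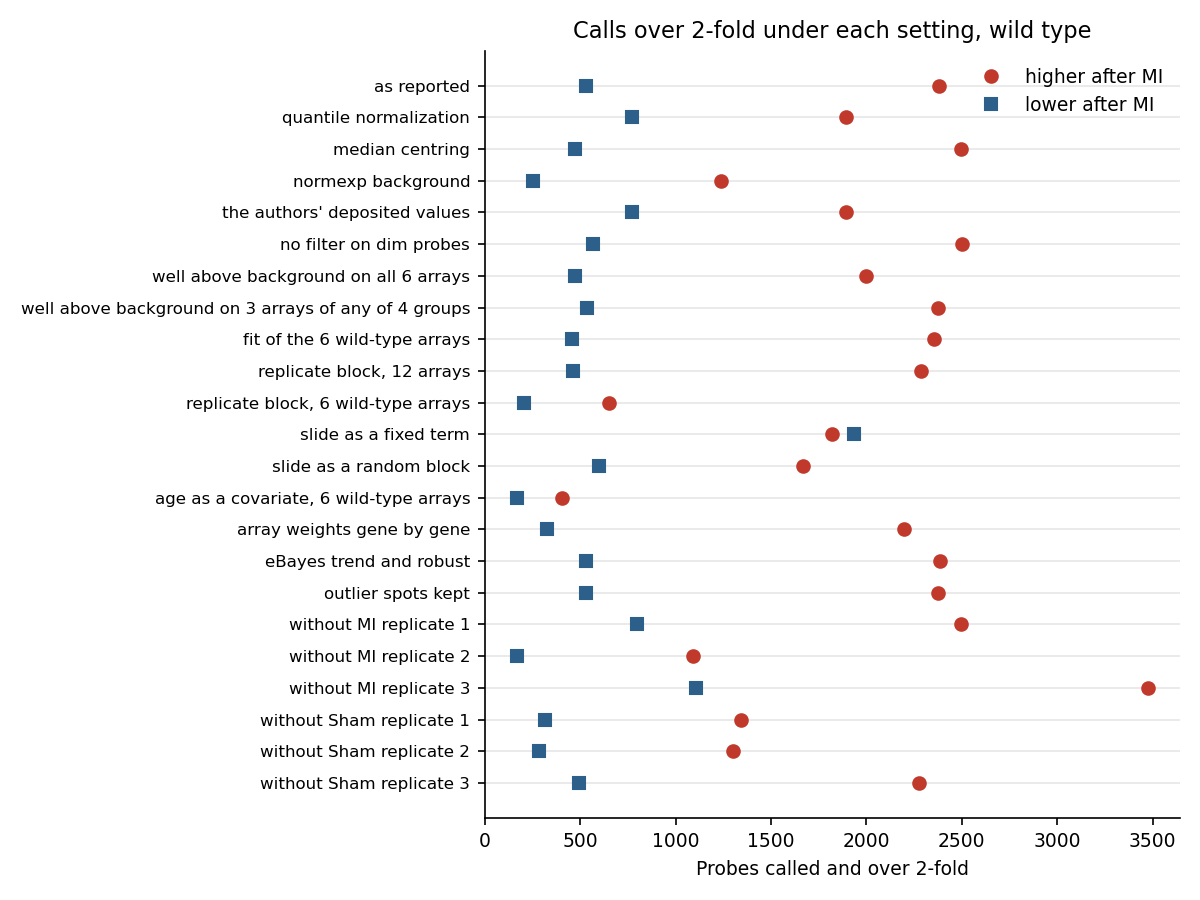
Probes called and over 2-fold (x axis) under each setting (y axis), with red circles for higher and blue squares for lower after MI. The circle lies to the right of the square in every row but the fit with slide as a fixed term, where 1822 were higher and 1935 lower.

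A difference between slides could be read only in knockout sham, as 2 arrays on slide 1 (15 weeks of age) minus 1 array on slide 2 (16 weeks). It is a description with no test, in which slide, age and the 1 mouse on slide 2 cannot be told apart. The median deviation of that mouse's array from the other arrays of its group was 0.23, against 0.11 and 0.18 for the others. For the wild-type probes called higher over 2-fold its median was -0.15, against 1.33 for MI in wild type. For those called lower over 2-fold it was 0.54, against -1.15. The medians of the knockout sham difference thus had the opposite sign to the wild-type difference. The median local background of an array was 29, 26 and 32 intensity units after MI and 21, 21 and 22 after sham (exact permutation test, p = 0.1). It was 25 to 33 on the knockout arrays of slide 1 and 21 on the knockout array of slide 2. The 75th percentile signal used for scaling was 427, 456 and 368 after MI and 468, 464 and 469 after sham. The median signal of negative controls was 5.98, 6.45 and 5.97 after MI and 8.12, 7.27 and 7.29 after sham (exact permutation test, p = 0.1 each). On knockout arrays these were 360 to 462 and 7.20 to 9.78 on slide 1, and 326 and 6.25 on slide 2. The part of these measures in the result was not tested.

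The unnamed probes below were picked for the widest gaps between the groups, among probes called and well above background on all 6 arrays. Gaps wider than for any named gene thus follow largely from that choice. Their adjusted p-values and calls rest on the arrays that picked them, so they describe these probes and test nothing further. ASMM10P046283 stood at -0.76, -0.54 and -1.05 after MI and at 6.82, 4.47 and 5.61 after sham, a difference of -6.42 (SE 0.47, adjusted p = 0.00103). It passed the background flag on all 6 arrays, was called in all 22 alternatives, and lay between -1.52 and -0.37 on the knockout arrays of both surgeries. ASMM10P054730 stood at 2.86, 2.95 and 2.97 after MI and at 5.31, 6.22 and 6.35 after sham, a difference of -3.03 (SE 0.75, adjusted p = 0.0171). Its adjusted p was 0.0503 without MI replicate 2 (difference -3.05) and 0.0622 without sham replicate 2 (difference -2.91), and its difference was -6.14 with slide as a fixed term.

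Of the unnamed probes that rose, ASMM10P039833 stood at 2.94, 6.07 and 5.03 after MI and at -0.02, -1.19 and -0.69 after sham. The difference was 5.31 (SE 0.78, adjusted p = 0.00472), with a wide spread among the MI arrays and no overlap, and the probe was called in all 22 alternatives. ASMM10P028275 stood at 5.0, 7.47 and 5.15 after MI and at 2.02, 1.89 and 2.23 after sham, a difference of 3.83 (SE 0.67, adjusted p = 0.00661). With slide as a fixed term its difference was 2.11 (adjusted p = 0.212).

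The ventricles differed more among themselves after MI than after sham. The median SD between the 3 arrays was 0.21 after MI and 0.10 after sham, a ratio of 2.06, and 78.0% of probes had the larger SD after MI. The ratio was 2.08 for probes called higher, 2.65 for probes called lower and 1.97 for probes not called. Each array's median deviation from the mean of the other arrays of its group was 0.156, 0.295 and 0.214 after MI and 0.108, 0.0906 and 0.112 after sham (exact two-sided permutation test, p = 0.1). The means for MI replicates 1 and 3 include MI replicate 2, so these values are not separate evidence of a wider spread. Without MI replicate 2 the ratio of SDs was 1.09, against 2.24 without MI replicate 1 and 1.91 without MI replicate 3. These ratios set an SD of 2 MI arrays against an SD of 3 sham arrays, which tends to lower them. Much of the larger spread thus came with MI replicate 2. The median absolute log2 difference between MI replicates 1 and 3 was still 0.158, above the 0.107 to 0.132 between sham arrays. The percentage of probes over 2-fold apart was not above sham, at 1.26% for this MI pair and 0.961% to 2.25% for pairs of sham arrays.

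Distances between pairs of arrays showed the same array apart. The median absolute log2 difference was 0.107 to 0.132 between sham arrays and 0.158 between MI replicates 1 and 3, but 0.277 and 0.325 between MI replicate 2 and the other MI arrays. To the sham arrays, MI replicates 1 and 3 had distances of 0.233 to 0.290 and MI replicate 2 of 0.465 to 0.517. From 17.5% to 21.1% of probes were over 2-fold apart between MI replicate 2 and a sham array, against 5.63% to 8.23% for the other MI arrays. MI replicate 2 was thus farther from sham than from the other MI arrays, and farther from sham than they were.

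**Figure D4:**
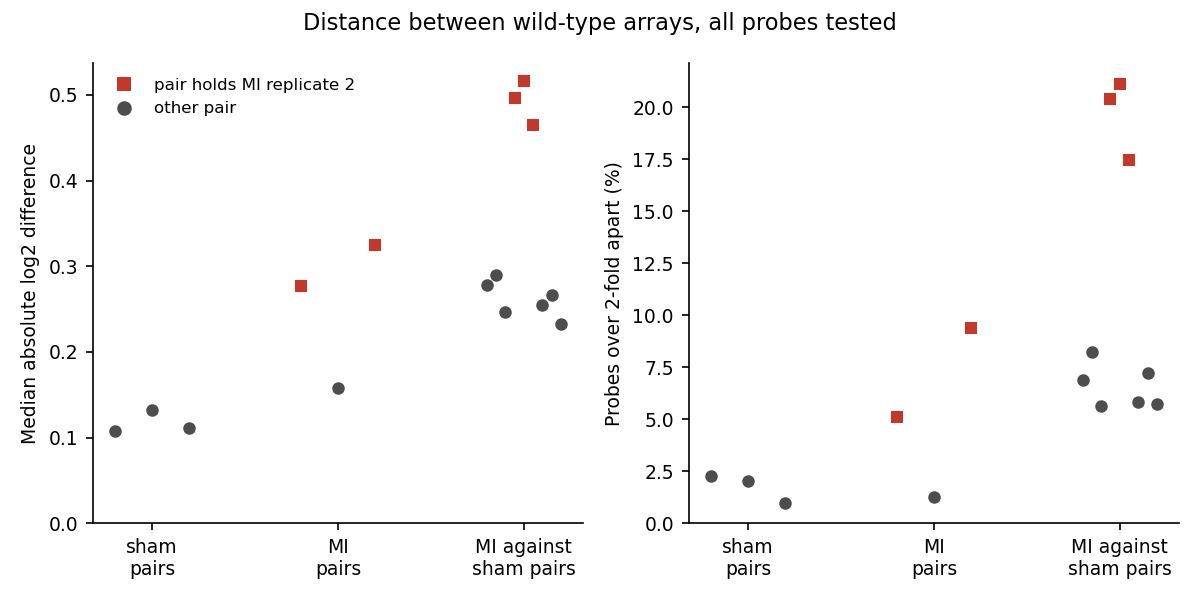
Each point is a pair of wild-type arrays, with the median absolute log2 difference (left) and the percentage of probes over 2-fold apart (right) on the y axis. Pairs of MI replicate 2 with sham arrays (red squares, 0.465 to 0.517 on the left) lie above all others in both panels. Pairs of sham arrays lie lowest on the left (0.107 to 0.132). On the right the pair of MI replicates 1 and 3 (1.26%) lies among the pairs of sham arrays (0.961% to 2.25%).

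The medians of all MI arrays moved the same way at the called probes, by different amounts. For probes called higher, the median distance from the sham mean was 0.71, 1.13 and 0.63 in MI replicates 1, 2 and 3, and for probes called lower it was -0.44, -0.72 and -0.40. MI replicate 2 was the farthest of the MI arrays from the sham mean for 82.2% of probes called higher and 86.4% of probes called lower. Since the same arrays made the calls, these values describe them and test nothing. Over all probes, the differences of MI 1 minus sham 1 and MI 2 minus sham 2, which share no array, correlated across probes at r = 0.76, with the same sign for 81.8%. The r was 0.56 for each pairing with MI 3 minus sham 3 (71.5% and 71.3% of the same sign), and all these differences run from slide 2 to slide 1.

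By the wording of their IDs, 1836 probes on the array are named for lincRNAs, of which 1305 were tested. Of these, 84 were called higher and 284 lower. The share called was 28.2%, near the 27.8% of all probes, but 22.8% of the lincRNA calls were higher against 48.1% of all calls. The median difference was -0.22 against -0.04, and 70.9% of lincRNA-named probes lay below 0 against 53.7% of all probes. Calls were lower more often than higher in human-named lincRNA probes (170 against 51 of 781), mouse-named ones (102 against 29 of 458) and lincRNA exon probes (12 against 4 of 66). Among calls over 2-fold more were higher, at 43 higher and 23 lower, against 2378 higher and 529 lower of all probes. The lincRNA-named calls of this size thus also had a smaller share higher than all probes. Lower calls were more numerous in 20 of the 22 alternatives, with 327 lower and 69 higher under quantile normalization and 212 and 93 under normexp. Without MI replicate 2 there were 137 lower and 42 higher. The exceptions were age as a covariate, at 7 lower and 16 higher, and the replicate number as a term in the 6 wild-type arrays.

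lincRNA-named probes end in a plus or a minus sign, whose meaning the sources used here do not give. With plus, 46 were higher and 138 lower of 653, and with minus 38 and 146 of 652. For 445 names both probes were tested. Across these names the differences of both probes correlated at r = -0.04 and their signals at r = 0.08, with no test. Both were lower for 21 names, 1 of both was lower for 151, both were higher for 2, and 1 was higher while the other was lower for 14. How many names would have both probes called in the same direction if the probes of a name were unrelated was not worked out. These counts are thus a description only.

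The largest class of IDs, ASMM10P, held 49086 of the tested probes, with 6672 higher and 6977 lower (27.8% called) and a median of -0.04. The smaller ASMM10UP class held 586, with 57 higher and 101 lower (27.0% called) and a median of -0.12. The sources used here do not say what these classes stand for. All classes of unnamed probes had a share called between 24.2% and 28.6%, and they differed in the balance of directions.

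The balance also moved with the brightness of the probe, for which tested probes were ranked by mean signal and cut into 5 equal bins, 1 the dimmest. This ranks spots and not transcripts. Among ASMM10P probes, 11.8% were higher and 8.42% lower in bin 1, 13.1% and 20.8% in bin 4, and 21.0% and 10.9% in bin 5. The order in bins 1 and 5 depended on the scaling: under quantile normalization 9.74% were higher and 10.6% lower in bin 1, and 12.7% and 21.2% in bin 5. Among lincRNA-named probes lower calls were more numerous in every bin as reported and under quantile normalization, but under normexp not in bin 1 (31 higher, 6 lower) and bin 2 (30 higher, 27 lower). The share was largest in bin 4, where 82 of 210 were lower (39.0%) and 10 higher (4.76%). Under quantile normalization 89 of those 210 were lower and 8 higher, under normexp 93 and 9, and without MI replicate 2 there were 47 and 4. The lincRNA balance was thus not that of ASMM10P probes of like brightness, a description with no test.

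**Figure D5:**
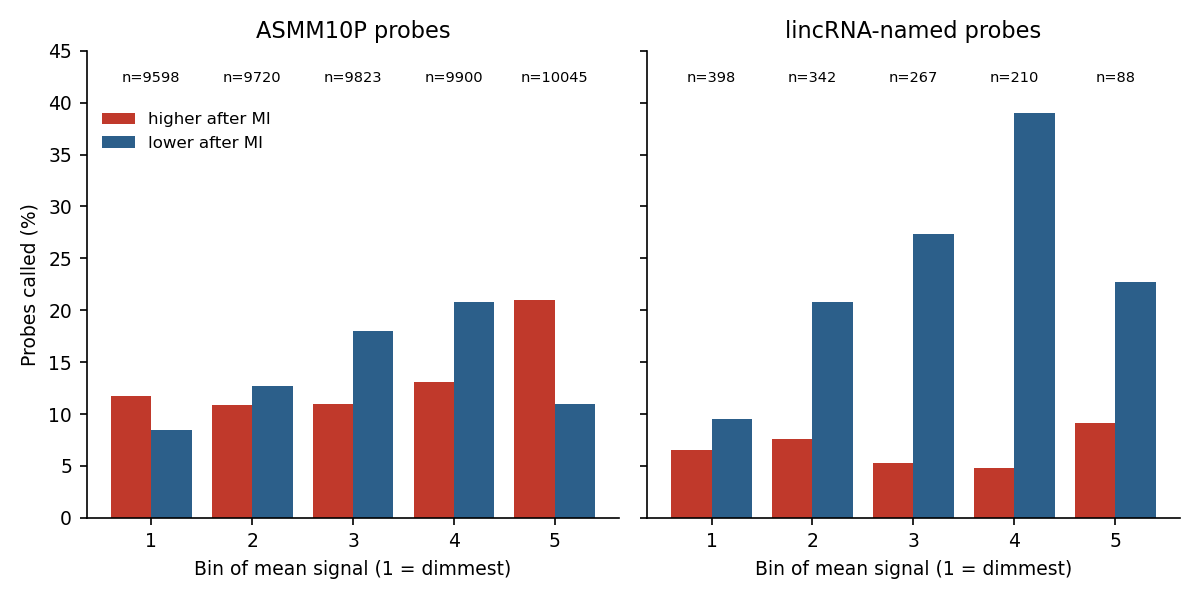
Percentage of probes called higher (red) and lower (blue) after MI on the y axis, by bin of mean signal (x axis, 5 bins, 1 is the dimmest), for ASMM10P probes (left) and lincRNA-named probes (right). In bin 4, 39.0% of lincRNA-named probes and 20.8% of ASMM10P probes were lower, and in bin 5 ASMM10P probes were more often higher (21.0% against 10.9%), which turned under quantile normalization.

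More probes were seen only after MI than only after sham. On every MI array but no sham array, 359 probes were well above background, and the reverse held for 60. These probes passed the filter only through the group where they are bright, so calls among them are not counted. Of the 359, 337 were ASMM10P probes and 11 were lincRNA-named, and of the 60 the counts were 52 and 3. With the scanner's other flag (positive and significant) the counts were 163 and 25. Leaving out an array relaxes the rule, so the counts could then only rise or stay, and only the size of the rise is informative. Without MI replicate 2 the counts were 378 on the MI side and 166 on the sham side, so the sham side rose far more. The count on the MI side was 798 without MI replicate 3 and 651 without sham replicate 2. On the sham side it was 118 without sham replicate 1 and 121 without sham replicate 3. The percentage of spots well above background was 85.0, 88.1 and 83.9 after MI and 82.6, 85.0 and 83.1 after sham, which overlapped (exact permutation test, p = 0.3).

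Control probes of the array, named E1A and ERCC for spike-in sequences or ETG, also differed between the groups. Of 35 such probes, 17 stood well above background on each of the 6 arrays. Of these, 4 were higher on every MI array, 9 were lower on every MI array and 4 overlapped. Their differences ran from -1.05 to 1.32 with a median of -0.22, so control signals shifted by amounts in the range of the calls. Their part in the probe-level results was not tested.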

How the data were processed

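Left ventricular RNA of 6 wild-type mice was analysed, with 6 knockout arrays in the same fit. Ribosomal RNA was depleted before random-primed amplification and Cy3 labelling, per the labels' protocols. The deposited scanner files hold linear spot intensity. Per the file headers, the software was Agilent Feature Extraction 11.0.1.1, with background subtraction and spatial detrending. Other columns are quality flags per spot, per the file headers. The authors' deposited value table is on a log2 scale with a median of 6.91 in each column, judged from its correlation with the scanner signal (at least 0.9995 after quantile normalization). The sources used here do not give its normalization. The array design lists build mm9 per the file headers. Slides were told apart by scan time and array position in the file headers.

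Log2 of the processed signal minus the array's 75th percentile was used. Outlier spots were set missing, spots of a probe were averaged, and probes well above background on all 3 arrays of wild-type sham or MI were tested, less 15 negative controls by name. limma 3.58.1 (lmFit, eBayes) in R 4.3.3 fitted a mean per group over 12 arrays, with Benjamini-Hochberg adjustment over 50992 probes. Exact two-sided permutation tests were used for single values, with 0.1 as their smallest p. The fit was tested on simulated data. Figures were drawn with matplotlib 3.10.9.

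The text names every probe paired with an accession and symbol (through a RefSeq table of GRCm38.p6), and the 2 unnamed probes that rose and the 2 that fell with the widest gap between groups. The members and lists were chosen with earlier results of these data known. Alternatives were quantile normalization, median centring, normexp (offset 50, on the median spot signal, the mean being absent from the columns), the authors' values (missing for 88 tested probes), other filters, other fits with slide, age, replicate number or array weights, and leaving out each array. The directions of calls over and up to 2-fold under each alternative were added after seeing the data. Cell type markers and Miat were not analysed here.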

Additional observations from a re-analysis of the deposited data

Results flagged for a closer look

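On control probes named for spike-in sequences, which no comparison of genes used, signal was above every wild-type sham array on every MI array in 4 cases, while 9 of the 17 bright control probes were lower on every MI array. E1A_r60_a107 was higher after MI by 1.32, at 0.52, 1.97 and -0.11 on the MI arrays against -0.38, -0.77 and -0.43 on the sham arrays (exact two-sided permutation test, p = 0.1). It was 1.06, -1.01 and 0.90 on the knockout MI arrays and -0.90, -0.66 and -0.75 on the knockout sham arrays, so knockout MI replicate 2 lay with the sham arrays. ERCC-00043_129 was higher after MI by 0.54, at -3.61, -3.58 and -3.36 against -4.03, -4.04 and -4.09 (exact permutation test, p = 0.1). On the knockout arrays it was -3.80, -3.84 and -3.89 after MI and -4.14, -3.61 and -3.87 after sham, where the groups overlapped. The value of -4.14 belongs to knockout sham replicate 1, the only knockout array on slide 2. Every array of slide 2 thus lay below every array of slide 1 for ERCC-00043_129. Its difference followed slide as well as surgery in wild type, and the part of the slide was not tested. E1A_r60_n11 was higher after MI by 0.32, at -3.04, -3.11 and -2.90 against -3.31, -3.34 and -3.33, and ERCC-00012_90 by 0.17, at -1.61, -1.64 and -1.70 against -1.85, -1.80 and -1.80 (exact permutation test, p = 0.1 each). Both overlapped between the knockout groups.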

How the results depend on the processing

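Every comparison of wild-type MI and sham crosses slides, 3 arrays a group limit precision, probes near background give weak signal, and only 15 probes could be named; the cause of each change below was not tested. Against 14182 calls there were 5760 with slide as a fixed term, 5911 with slide as a random block, 9589 in the fit of the 6 wild-type arrays, 882 with age added to that fit and 4276 to 17923 when 1 array was left out. Against 2907 calls over 2-fold there were 1494 under normexp, 570 with age, and 1263 to 4586 when 1 array was left out; 48.5% of them were higher with slide as a fixed term. Of the 7 named genes called, 1 passed with age, and 3 to 7 when 1 array was left out. Gk turned to -1.03 with slide as a fixed term. The share of calls that were higher (48.1%) was 38.6% under quantile normalization, 38.7% with the authors' values, 49.5% with median centring, 56.2% with normexp, 49.97% with no filter, 46.5% with probes bright on all 6 arrays, 55.3% in the fit of the 6 wild-type arrays, 41.5% and 51.8% with slide as a fixed term and a random block, 72.8% with age, 47.1% with trend and robust set and 47.6% to 59.1% when 1 array was left out (51.3% without MI replicate 2, 53.8% without sham replicate 1, 59.1% without sham replicate 2 and 53.9% without sham replicate 3). Among lincRNA-named probes the share (22.8%) was 17.4% under quantile normalization, 17.5% with the authors' values, 30.5% with normexp, 18.2% with probes bright on all 6 arrays, 34.7% in the fit of the 6 wild-type arrays, 15.3% with slide as a fixed term, 69.6% with age and 19.5% to 31.9% when 1 array was left out. The ratio of SDs (2.06) ran from 1.09 to 2.24 when 1 MI array was left out, with fewer arrays behind the MI SD than behind the sham SD. Probes seen on all MI arrays and no sham array (359) were 163 with the positive and significant flag and 378 to 798 when 1 array was left out. The reverse (60) was 25 and 84 to 166, and leaving out an array could only raise or keep these counts.

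Replicate numbers are shared between the groups by the labels. Deviations of same-numbered arrays from their group means correlated at 0.08, -0.11 and -0.28, and those of arrays with unlike numbers at -0.16 to 0.28. No pairing was seen in these values, but 3 arrays a group cannot settle whether same-numbered arrays are paired. With the replicate block in the 6 wild-type arrays there were 930 calls (75.6% higher), 856 over 2-fold, 0 of the named genes and a lincRNA share of 70.4% higher. With the replicate block in 12 arrays 52.9% of 11223 calls were higher. Not every array correlated best with its own number.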
